A study of Mus musculus with 12 samples.

Results

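Mouse chromosome 2 carries large clusters of class II odorant receptor genes, and their transcripts were followed in the olfactory mucosa of mice lacking an enhancer region of the class I receptors. The genes described here are those whose symbol runs from Olfr987 to Olfr1318 by number, without the symbols marked as pseudogenes. They are 228 of the 39395 genes analysed, beside 893 other class II receptor genes. GENCODE release M21 (GRCm38) annotates 243 genes of the described kind, and 15 of them were not analysed here. Unlike the members, the 893 other class II genes include symbols marked as pseudogenes, 60 of them from this same number range. All 228 lie on chromosome 2. They form a larger cluster of 197 genes at chr2:85330779-90292841 and a smaller one of 31 genes at chr2:111254516-112159157.

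The DEL group held 6 animals with the large deletion, which removes 408217 bp of chromosome 7 (102509797 to 102918014), and the WT group held 6 wild-type animals. All were males at postnatal day 30 on a mixed 129S6;C57BL/6J background, and each gave 1 library of ribosome-depleted, strand-specific total RNA. The labels give age-matched animals and no litter, number of founder lines or zygosity for the deletion. The comparison asks what the receptor genes left in the genome do when this interval is missing, and for chromosome 2 it reads genes that lie on another chromosome.

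Odorant receptors are seven-transmembrane proteins of the olfactory sensory neurons. A mature neuron expresses a single receptor allele out of the whole family, so the level of 1 receptor in whole tissue follows both how many neurons have chosen it and how much transcript each makes. Class I receptors are the older, fish-like class, kept in a single cluster on chromosome 7, while class II receptors fill clusters on many chromosomes and are silenced by heterochromatin until 1 is chosen. Enhancers bound by Lhx2, Ldb1 and Ebf factors act on class II clusters, also between chromosomes.

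Recovered library totals were 10091239 to 18612011 reads in DEL and 13942401 to 18044908 in WT. No DEL library had a read on any of the 25 deleted class I genes, against 1299 to 1728 reads in each WT library. DEL replicate 3 stood apart: 94.6% of all genes had a read there and keratin-associated protein genes, which are hair genes, had 2.80 reads per kb, while in WT libraries 65.2% to 69.3% of genes had a read and the same genes had at most 0.117 reads per kb. Its chromosome 2 receptors stood at 23.6 reads per kb, and all 228 had a read there. DEL replicate 2 came next, with 80.6% of genes and 0.671 reads per kb. DEL replicates 5 (75.6% and 0.467) and 4 (73.1% and 0.350) also lay above every WT library on both measures. DEL replicates 1 and 6, with 67.2% and 67.4% of genes, lay within the WT range. The part of this background in the receptor values was not tested. Mature neuron markers such as Omp and Adcy3 summed to 9741 to 12861 CPM (reads scaled to library size) in DEL and 10199 to 13550 CPM in WT, and no marker of 9 cell type lists passed the test. Bowman gland markers reached 5572 CPM in 1 DEL library, against at most 1533 CPM in WT, with medians of 1166 CPM in DEL and 1161 CPM in WT. Only 1 of these 5 markers, Bpifb9b, had a positive log2 fold change. It had 21125 ± 27611 normalized reads in DEL and 5930 ± 3780 in WT (mean ± SD). The part of these markers in the receptor values was not tested.

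The members are related in sequence to differing degrees. Over whole coding sequences, taken as the longest open reading frame (585 to 1119 bases, median 942), identity to the closest other member had a median of 85.3%, with a range of 50.5% to 98.7%. The closest relative exceeded 95% for 37 members, and the median over all 25878 pairs was 57.7%. Of the stretches of 50 bases in a member's coding sequence, a median of 6.53% also occurred in another receptor transcript of the reference. Untranslated parts of the members were not searched. The share of coding stretches found elsewhere was 0 for 72 members and above 10% for 107, and it was highest, at 79.5%, for Olfr1316. Counts of the members that share much sequence depend on how reads common to copies were assigned. Exons of 6 members overlapped another gene on the same strand and those of 2 overlapped one on the other strand. The members lay on both strands, 83 on the plus and 145 on the minus strand.

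Levels between genes are given as normalized reads per kb of exon, averaged over all 12 animals. They spanned 0.367 to 187 with a median of 23.4, and the quartiles lay at 11.3 and 40.5. Reads were spread over many genes: 43 of the 228 members held 50% of all normalized reads of the set, and the 10 with the most reads held 20.2%. Olfr1228 had the highest level, 187 per kb, followed by Olfr1257 (168 per kb), Olfr1213 (153 per kb), Olfr1176 (125 per kb) and Olfr1110 (119 per kb). Olfr1264 (111 per kb), Olfr1196 (105 per kb), Olfr1015 (102 per kb), Olfr1226 (101 per kb) and Olfr1046 (97.6 per kb) closed the first 10. The order of the members was almost the same in both genotypes (Spearman rho 0.99 across 228 genes, a description, since the genes share their libraries).

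**Figure D1:**
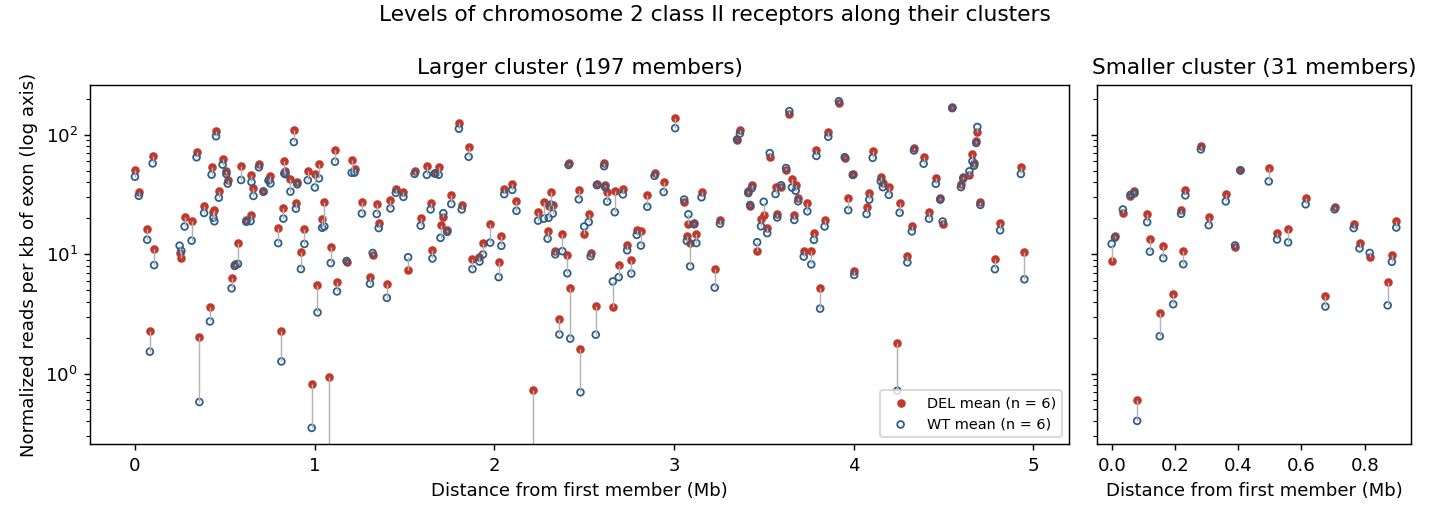
Normalized reads per kb of exon (log axis) of each receptor against its distance from the first receptor of its cluster, with DEL means as filled and WT means as open points (n = 6 each) joined by a line. The levels scatter over the range 0.367 to 187 per kb along both clusters, and DEL and WT points of most genes nearly coincide; Olfr1061 and Olfr1128 have no WT read and so only a DEL point.

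Within the larger cluster, level was only loosely related to position (Spearman rho 0.13 across 197 genes, a description). Counted from its first gene in steps of 1 Mb, the median level was 25.3, 21.7, 20.2, 26.3 and 35.6 reads per kb. The fourth step, which runs from Olfr1176 to Olfr1232, held 28.0% of the set's reads and the fifth, from Olfr1233 to Olfr1272, held 22.2%. The smaller cluster had a median of 14.4 reads per kb, its highest member was Olfr1294 at 77.6 per kb, and it held 9.70% of the reads. The 5 steps held 47, 40, 39, 41 and 30 genes.

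At the low end, 25 members had too few reads to be tested. Their mean normalized reads were 0.343 to 9.003. Of the 16 members whose gene model holds no untranslated sequence, 15 were among them. Olfr1128 had 3 reads, all in DEL replicate 3, and none in WT. Olfr1061 had 4 reads in DEL, 3 of them in that same library, and 0 in WT. In all, 216 members had a read in each of the 12 animals. At least 1 read was found for 222 to 228 members in DEL and for 221 to 223 in WT (exact permutation p = 0.0606, adjusted p = 0.182 over 3 measures). The DEL animal with all 228 was the library with the highest background.

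Upstream sequence could be looked at for few of these genes. RefSeq promoter windows (GRCm38.p6, 250 bases before to 50 after the annotated start) matched 189 members, but for 140 of them the RefSeq start is the coding start or lies inside the coding sequence. For the other 49, the window was searched on both strands for CCCNNGGG, the core of the known Ebf sequence, and for the full Ebf palindrome, which has a T before and an A after that core, and for TAATTA and TAATGA, close to those of LIM-homeodomain factors such as Lhx2. Each full palindrome contains the core. Windows are shown for members of high level, of small p or of wide variation, and capitals mark a motif. Only the 250 bases before the start are printed, 5′ to 3′ on the gene's strand. The stretch of Olfr1056 lies inside its GENCODE gene model (chr2:86354398-86362469), although its RefSeq start matches the start of a GENCODE transcript. The 49 windows were not screened for lying inside a gene model.
Olfr1213, chr2:88980268-88980517, minus strand: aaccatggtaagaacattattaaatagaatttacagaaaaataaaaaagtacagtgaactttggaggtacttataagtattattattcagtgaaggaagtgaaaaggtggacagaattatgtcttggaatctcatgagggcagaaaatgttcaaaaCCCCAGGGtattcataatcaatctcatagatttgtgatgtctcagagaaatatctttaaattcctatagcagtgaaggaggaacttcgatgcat
Olfr1110, chr2:87140234-87140483, minus strand: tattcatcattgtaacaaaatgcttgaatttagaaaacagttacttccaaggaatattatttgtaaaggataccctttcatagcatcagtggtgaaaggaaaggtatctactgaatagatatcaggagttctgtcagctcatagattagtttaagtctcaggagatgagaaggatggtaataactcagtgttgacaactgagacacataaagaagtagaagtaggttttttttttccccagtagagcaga
Olfr1056, chr2:86356438-86356687, minus strand: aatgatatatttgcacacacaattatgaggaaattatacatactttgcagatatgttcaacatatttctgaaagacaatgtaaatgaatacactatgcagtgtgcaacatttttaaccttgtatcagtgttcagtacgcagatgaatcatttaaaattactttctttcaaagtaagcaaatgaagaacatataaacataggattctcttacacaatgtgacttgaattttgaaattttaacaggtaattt
Olfr1205, chr2:88829507-88829756, plus strand: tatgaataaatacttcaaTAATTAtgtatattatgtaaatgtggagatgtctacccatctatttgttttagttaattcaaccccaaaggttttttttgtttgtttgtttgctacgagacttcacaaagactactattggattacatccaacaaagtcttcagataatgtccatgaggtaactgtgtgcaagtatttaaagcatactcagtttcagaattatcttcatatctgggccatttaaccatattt

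The window of Olfr1213 holds the core CCCNNGGG and that of Olfr1205 holds TAATTA, while these letters do not occur in the 250 bases shown for Olfr1110 and Olfr1056. Over the 49 members, TAATTA was found in 15 windows (30.6%) and TAATGA in 16 (32.7%). Among 207 other receptor genes with a start away from the coding start, TAATTA was found in 15.5% and TAATGA in 34.3%, and among all 25246 such genes of the RefSeq table in 5.66% and 10.7%. For genes other than members, a window was left out only where its start read ATG. Members were also left out where the start lay inside the coding sequence, so the sets were filtered by unlike rules. CCCNNGGG was in 5 of 49 members (10.2%), against 7.25% of other receptors and 16.0% of all genes. The full Ebf palindrome was in 0 of the 49, against 0.966% of other receptors and 1.09% of all genes. A match is a run of letters in these windows and was not tested for binding.

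Between genotypes, no chromosome 2 receptor passed the test. Of 203 members tested, 0 were higher and 0 lower in DEL at an adjusted p under 0.05 by limma, where 0.052% of all 17320 genes tested were called higher and 0.445% lower, 0.497% in all. The edgeR quasi-likelihood test and DESeq2 on the recovered reads also called 0 members, against 0.491% and 0.56% of all genes. At an unadjusted limma p under 0.05, 18 members were higher and 0 lower (edgeR 19 and 0, DESeq2 21 and 1), where 2.02% of all genes were higher and 2.37% lower. The higher ones were 8.87% of the members by limma, beside 12.8% of other class II receptors (84 of 656). The share was 6.67% for class II receptors of chromosome 7 and 17.3% for those of chromosome 9. For no member did the 6 DEL values lie wholly above or wholly below the 6 WT values, against 0.133% and 0.497% of all genes. The members' 95% intervals reached a median of 0.37 to either side on the log2(value + 1) scale, and for 190 members the interval lay within 1 log2 unit of no change.

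The fold changes leaned one way without passing. Of the 203 members, 178 had a positive log2 fold change (87.7%), where 45.9% of all genes did, and their median was 0.17, against -0.01 for all genes. Other class II receptors showed the same lean, with 572 of 656 positive and a median of 0.19, as did those of chromosome 7 (median 0.17, 77 of 90) and chromosome 9 (median 0.20, 98 of 110). Class I receptors outside the deleted interval had a median of -1.49, with 14 of 94 positive. All genes are not matched to the members for level. Among the 203 tested members, fold change fell loosely with level per kb (Spearman rho -0.25, a description). The lean rested on some libraries: without WT replicates 4 and 5, chosen after seeing that they had the lowest receptor sums in WT, the median was 0.08, 137 members were positive, and 4 were higher and 5 lower at an unadjusted p under 0.05. Without DEL replicate 2, 37 members were higher at that p and Olfr1301 passed the adjusted test. With DEL replicate 6 or WT replicate 5 left out, 11 were higher at that p in either case.

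**Figure D2:**
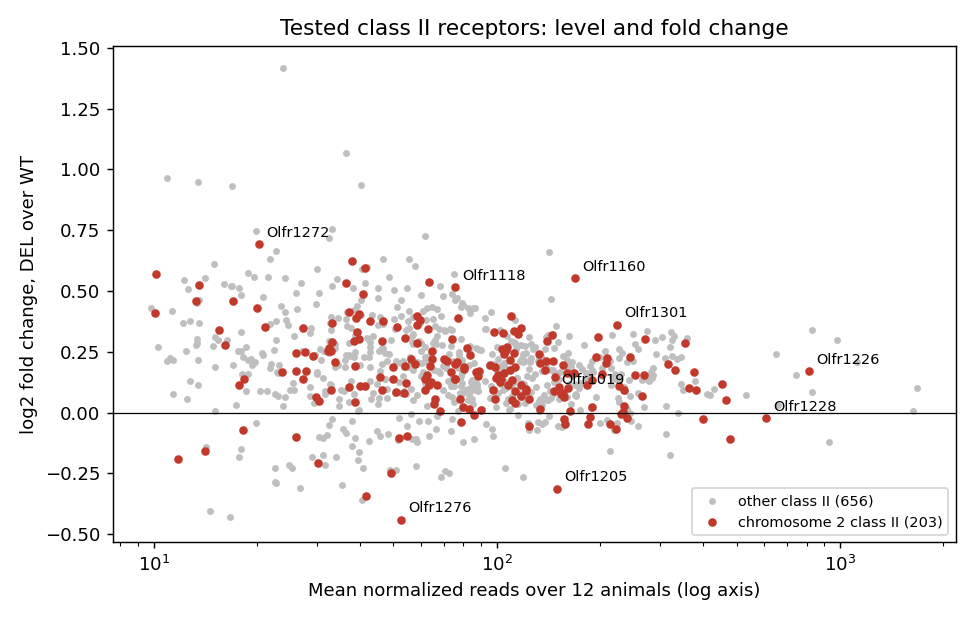
log2 fold change of DEL over WT against the mean normalized reads over 12 animals (log axis) for the 203 tested chromosome 2 class II receptors (red) and 656 other class II receptors (grey). The red points lie among the grey ones, mostly between 0 and 0.5, and reach from -0.44 (Olfr1276) to 0.69 (Olfr1272).

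Summed over all 228 members, the level was 1344 to 1850 CPM in DEL with a median of 1650 and 1192 to 1712 CPM in WT with a median of 1548. The means were 1639 ± 198 CPM in DEL and 1497 ± 204 CPM in WT (SD, n = 6 each), a difference of 9.48% that was smaller than the spread between animals (exact permutation test, two-sided, p = 0.247). In all, 2 DEL animals lay above all WT animals, WT replicates 4 and 5 were the lowest of the 12, and the ranges overlapped. In bulk tissue, a change in the number of neurons that express a receptor and a change in its RNA per neuron cannot be told apart. Without WT replicate 5 the difference was 5.19%, without WT replicates 4 and 5 it was 1.47%, and without DEL replicates 2 and 3 it was 15.2%. The larger cluster summed to 1481 CPM in DEL and 1352 CPM in WT (exact p = 0.236) and the smaller one to 159 CPM in DEL and 146 CPM in WT (exact p = 0.400, adjusted p = 0.400 for both). Per 100 CPM of mature neuron markers, the members stood at 14.5 in DEL and 12.7 in WT (exact p = 0.167).

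The chromosome 2 genes kept close to their share of the class, whose total here includes symbols marked as pseudogenes. They took 24.5% ± 0.588 of class II receptor reads in DEL and 24.8% ± 0.859 in WT (SD, n = 6 each; exact permutation p = 0.457, adjusted p = 0.970 over 4 shares). Class II genes of chromosome 7 took 12.5% in DEL and 12.5% in WT, those of chromosome 9 took 11.01% in DEL and 10.7% in WT, and all other class II genes took 52.0% in both. Without WT replicates 4 and 5, the chromosome 2 share was lower in DEL by 0.829 percentage points (exact p = 0.0381). Across the 12 animals the summed CPM of the members and of the other class II receptors moved together (Pearson r = 0.97, permutation p = 1e-05; Spearman rho = 0.96, permutation p = 1e-05). With 100000 permutations no smaller p was possible. Without the 2 animals farthest from the median r was 0.95. Within DEL r was 0.98 (exact permutation p = 0.00278, n = 6) and within WT it was 0.98 (exact permutation p = 0.00139, n = 6), and the adjusted p over the 3 relations was at most 0.00278. Both sums come from the same libraries and share their scaling. As a share of all receptor reads, class I included, the members took 23.2% in DEL and 22.2% in WT (exact p = 0.0584), where class I receptors outside the deletion summed to 364 CPM in DEL and 593 CPM in WT.

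**Figure D3:**
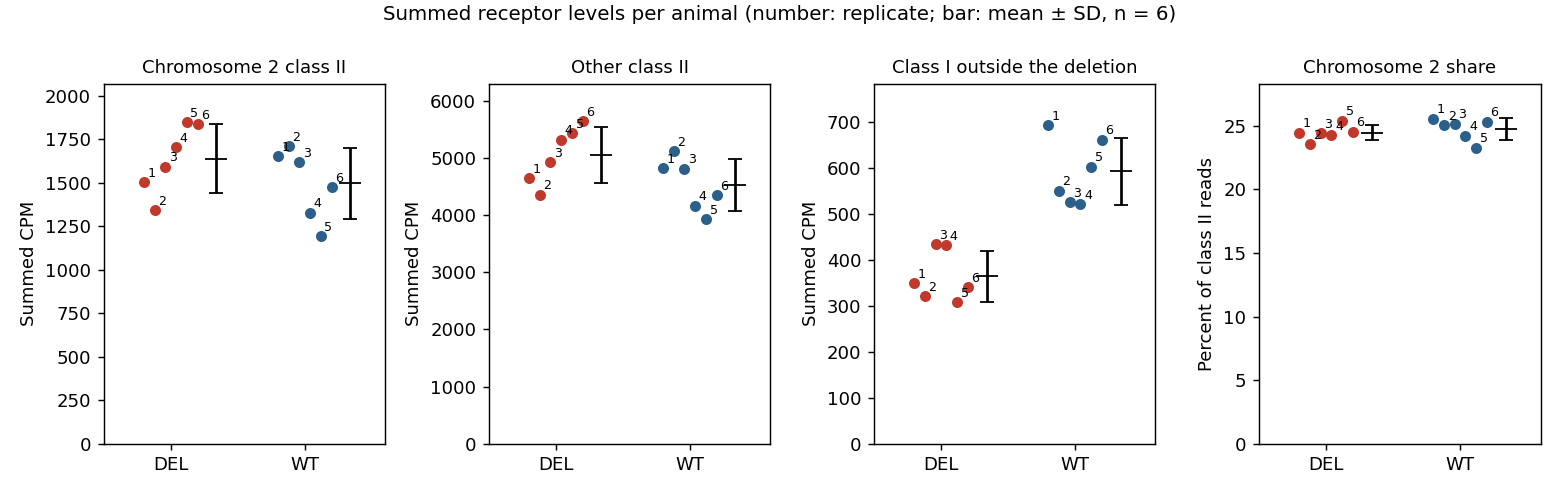
Summed CPM per animal of chromosome 2 class II receptors, of other class II receptors and of class I receptors outside the deletion, and the chromosome 2 share of class II reads, with DEL left of WT, each point numbered by replicate and the bar giving mean ± SD (n = 6). The first 2 panels have the same profile of animals, low in WT replicates 4 and 5 and DEL replicate 2, the ranges of DEL and WT overlap in all panels except class I, and the share lies between 23.3% and 25.6%.

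The spread of reads among the members did not differ beyond the animals' variation either. The 10 members of highest level took 18.8% ± 0.410 of the set's reads in DEL and 19.5% ± 1.83 in WT (exact p = 0.446). The Shannon entropy of the reads over members, higher where reads are spread more evenly, was 7.20 bits in DEL and 7.16 bits in WT (exact p = 0.223, adjusted p = 0.334 over 3 measures). The top 10 share ranged more widely in WT, from 17.0% to 21.8%, than in DEL, from 18.3% to 19.3%, a comparison for which no test was run.

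Among the members of highest level, Olfr1226 took the most reads. It had 728 to 993 normalized reads in DEL with a median of 826 and 535 to 1069 in WT with a median of 746 (log2 fold change 0.17 ± 0.17 SE, limma, adjusted p = 0.955). The WT animals ranged around the DEL animals on both sides. Olfr1228, with 87.6% coding identity to it, had 366 to 758 in DEL with a median of 620.4 and 407 to 829 in WT with a median of 617 (log2 fold change -0.02 ± 0.24 SE). Olfr1257 had 394 to 554 in DEL with a median of 469 and 294 to 524 in WT with a median of 491. Olfr1264 had 362 to 559.9 in DEL with a median of 429 and 336 to 657 in WT with a median of 497. Both groups overlapped for each of them. Olfr1213 had 328 to 488 in DEL with a median of 384 and 252.5 to 534 in WT with a median of 429, and Olfr1196 had 334 to 563 in DEL with a median of 466 and 282 to 637 in WT with a median of 418. Olfr1110 and Olfr1176 had DEL medians of 419.7 and 380.3, against WT medians of 355 and 318. Olfr1015 had a median of 255 in DEL and 237 in WT. Olfr1046, the last of the first 10, had 196 to 393 in DEL with a median of 298 and 223 to 266 in WT with a median of 229, so that 5 of 6 DEL animals lay above all WT animals and 1 below them (log2 fold change 0.30 ± 0.12 SE, limma, adjusted p = 0.955).

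Of the members with the smallest p, Olfr1301 in the smaller cluster came nearest to the threshold. It had 185 to 289 normalized reads in DEL with a median of 263 and 176 to 209 in WT with a median of 198. Of the 6 DEL animals, 5 lay above every WT animal, and replicate 2 was the exception. The log2 fold change was 0.36 ± 0.10 SE (limma, adjusted p = 0.335; edgeR adjusted p = 0.252; DESeq2 adjusted p = 0.0553). Its coding sequence shares no stretch of 50 bases with another receptor transcript.

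Olfr1118 had 67.3 to 105 in DEL with a median of 90.1 and 43.5 to 75.01 in WT with a median of 65.2 (log2 fold change 0.52 ± 0.16 SE, limma, adjusted p = 0.581). Olfr1079 had 96.5 to 162 in DEL with a median of 131 and 92.4 to 117 in WT with a median of 100.4 (0.35 ± 0.12 SE, limma, adjusted p = 0.866). For both, 5 of 6 DEL animals lay above every WT animal. Olfr1160 had 116 to 269 in DEL with a median of 219.8 and 93.2 to 172 in WT with a median of 135 (0.55 ± 0.19 SE, limma, adjusted p = 0.907). Olfr1056, Olfr1231, Olfr1002 and Olfr1058 had log2 fold changes of 0.40, 0.33, 0.53 and 0.62, and adjusted p-values of 0.918 to 0.955 by limma. Olfr1058 had medians of 42.8 in DEL and 27.2 in WT and an SE of 0.25. Wide errors were not limited to members with few reads: Olfr1099, with a mean of 245 normalized reads, had an SE of 0.31.

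No member was lower in DEL at an unadjusted limma or edgeR p under 0.05, and 1 was by DESeq2. The smallest p among those with a lower mean belonged to Olfr1276, the first gene of the smaller cluster, with 32.5 to 60.4 normalized reads in DEL, median 39.0, and 36.1 to 93.1 in WT, median 59.98 (log2 fold change -0.44 ± 0.23 SE, limma, adjusted p = 0.955). Of the DEL animals, 2 lay below all WT animals and the other 4 among them. Olfr1205 had 83.0 to 187 in DEL with a median of 118 and 95.2 to 281 in WT with a median of 157 (log2 fold change -0.31 ± 0.28 SE). Olfr1180, Olfr1148, Olfr996, Olfr1106 and Olfr1201 had log2 fold changes between -0.34 and -0.10, each with an unadjusted p above 0.19. Errors of this size were close to the values themselves.

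At the ends of the clusters, Olfr987 had a median of 92.2 normalized reads in DEL and 76.5 in WT, and Olfr1272 of the other end of the larger cluster had 25.8 in DEL and 14.6 in WT (log2 fold change 0.69 ± 0.31 SE, limma, adjusted p = 0.955), the widest positive difference of the set. Olfr1318, the last gene of the smaller cluster, had a median of 82.8 in DEL and 75.02 in WT. Olfr1019 is a receptor known in mice for responding to a fox odour component that evokes freezing. It had 135 to 171 in DEL with a median of 147 and 123 to 161 in WT with a median of 142 (log2 fold change 0.09 ± 0.09 SE, limma, adjusted p = 0.955). Its animals lay close together, and the groups overlapped over most of their range.

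**Figure D4:**
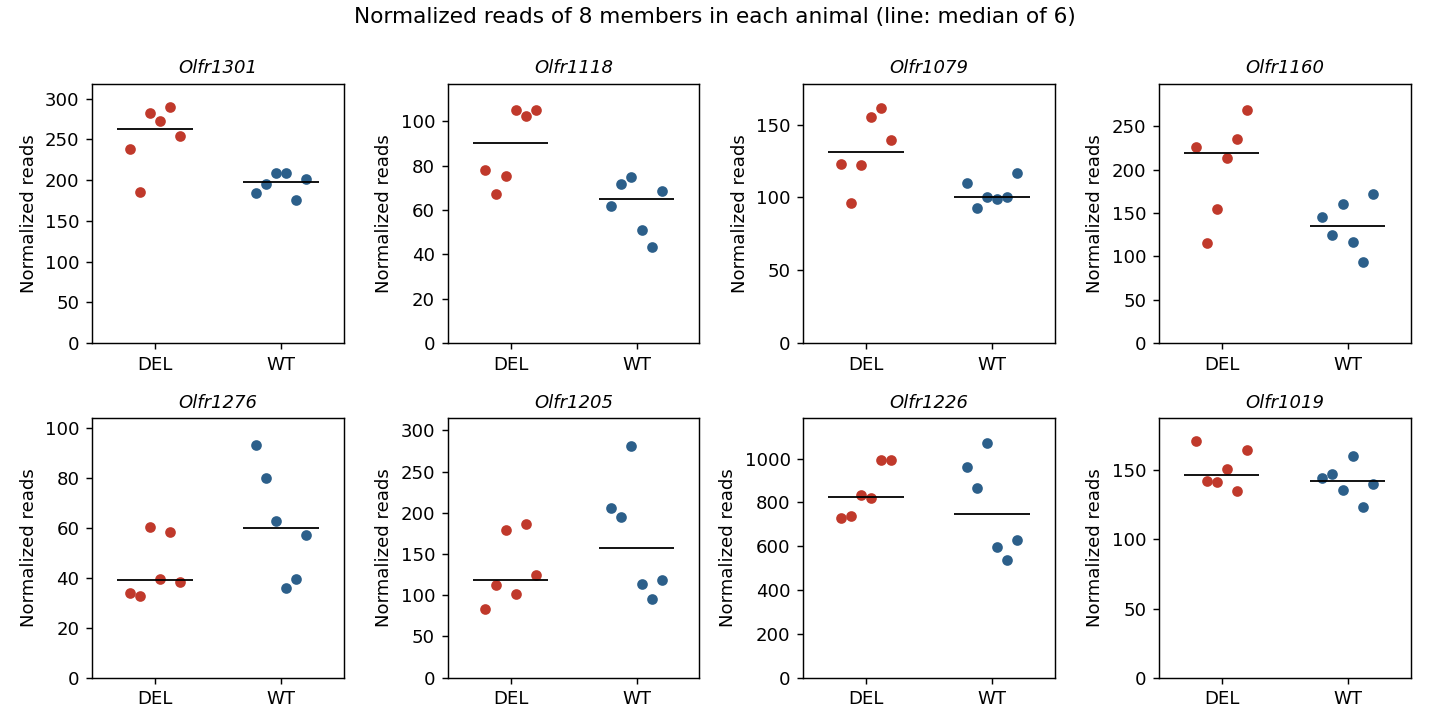
Normalized reads of 8 members in each animal, DEL left of WT, with a line at the median of 6: the 4 members of smallest p with a higher mean (Olfr1301, Olfr1118, Olfr1079, Olfr1160), 2 with a lower mean (Olfr1276, Olfr1205), the member with the most reads (Olfr1226) and Olfr1019. In each panel the DEL and WT points overlap, and Olfr1301 shows 5 of 6 DEL animals above all WT animals.

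Transcripts of genes whose proteins act on receptor gene choice and receptor traffic were measured in the same libraries. Of 31 such genes, among them Lhx2, Ldb1 and Ebf1 (which bind receptor enhancers), Kdm1a (a histone demethylase needed at the onset of receptor expression) and Rtp1 and Rtp2 (which bring receptors to the cell surface), 0 were higher and 0 lower, and the median log2 fold change was 0.00. Lhx2 averaged 2917 ± 134 normalized reads in DEL and 2805 ± 216 in WT (SD, n = 6 each), and Rtp1 averaged 9437 ± 740 in DEL and 9546 ± 765 in WT. The smallest p of this list was that of Bcl11b, a zinc-finger factor known to favour class II receptors, with 1756 ± 195 in DEL and 1546 ± 166 in WT (log2 fold change 0.18 ± 0.08 SE, limma, adjusted p = 0.955). The immature neuron marker Dpysl3 had the smallest p of the cell type lists, with 8278 ± 621 in DEL and 6863 ± 281 in WT (log2 fold change 0.27 ± 0.06 SE, limma, adjusted p = 0.0694). Beside the receptors' lean, the median log2 fold change was 0.14 for globose basal and precursor markers (6 of 7 positive). It was 0.28 for erythroid markers (5 of 5), -0.14 for horizontal basal markers (0 of 4) and -0.10 for sustentacular markers (1 of 6). At an unadjusted limma p under 0.05, the sustentacular markers Cyp1a2 and Muc2 and the immune marker Cd74 were lower. Neurod1 of the globose basal list and Dpysl3 were higher at that p. The medians of mature and immature neuron markers were -0.04 and 0.02. The part of these lists in the receptor values was not tested.

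Animals of 1 genotype differed in single members by more than counting error, as separate animals can. With each animal's deviation from its genotype mean taken relative to the median deviation of all tested members, the variation of Olfr1228 was 5.61 times the approximate counting error, that of Olfr1099 4.62 times, of Olfr1280 4.58 times, of Olfr1204 4.53 times and of Olfr1226 4.36 times. This ratio favours genes with many reads, whose counting error is small: the SD of the deviations was 0.22 on the log2 scale for Olfr1226 and 0.33 for Olfr1228, against 1.02 for Olfr1316 and 1.02 for Olfr1024, which have few reads. These genes were picked after their values were seen. Olfr1280 ranged from 170.2 to 380.5 normalized reads in DEL and from 163 to 342 in WT. Olfr1018, with no shared stretch of 50 coding bases, ranged from 129 to 280.0 in DEL and from 101 to 229 in WT. The DEL and WT ranges overlapped in both.

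Between animals, close neighbours had somewhat higher correlations than distant members. On the same deviations, the median correlation over the 12 animals was 0.29 for the 93 pairs of tested members less than 20 kb apart and 0.13 for the 354 pairs at 50 to 100 kb. It was 0.02 for 2692 pairs at 500 to 1000 kb, -0.06 for 5460 pairs at 2000 to 5000 kb and -0.04 for the 4900 pairs across the 2 clusters. Among pairs with less than 80% coding identity the median was 0.29 under 20 kb (74 pairs) and 0.13 at 20 to 50 kb (153 pairs), against 0.21 for all 209 pairs at 20 to 50 kb. Members of low coding identity can still share stretches of transcript. High correlations were not limited to neighbours: of the 40 highest pairs, 10 joined the 2 clusters, and the highest of all was that of Olfr1256 and Olfr1280 in different clusters (r = 0.94). These are descriptions over pairs that share genes and libraries, and no test was run.

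A set of 5 genes that lie side by side in the larger cluster (chr2:88793036-88867753, 74.7 kb) is described as an example, picked after its values were seen. Its genes also correlated with distant ones, as Olfr1202 did with Olfr1277 (r = 0.90) and Olfr1205 with Olfr1280 (r = 0.90) of the smaller cluster. It holds 2 kinds of sequence: Olfr1202 and Olfr1204 are 96.7% identical, Olfr1201 and Olfr1205 are 94.9% identical, Olfr1206 is 88.0% and 87.9% identical to these 2, and across the kinds identity is 60.7% to 64.6%. Most of the chromosome 2 receptors (219 of 228) share a stretch that reads M-x-x-D-R in amino acids, at the inner end of the third transmembrane segment. The 60 coding bases from its methionine codon, read 5′ to 3′ from GENCODE M21 transcripts (GRCm38, plus strand), show both kinds, with capitals where a base differs from Olfr1204.
Olfr1204: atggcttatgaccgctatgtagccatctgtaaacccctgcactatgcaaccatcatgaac
Olfr1202: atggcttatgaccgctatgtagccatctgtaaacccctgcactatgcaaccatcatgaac
Olfr1201: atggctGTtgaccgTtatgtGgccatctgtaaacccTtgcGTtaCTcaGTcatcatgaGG
Olfr1205: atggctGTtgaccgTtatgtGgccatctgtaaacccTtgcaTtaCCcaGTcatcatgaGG
Olfr1206: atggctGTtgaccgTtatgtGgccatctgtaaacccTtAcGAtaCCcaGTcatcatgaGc

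Here Olfr1202 does not differ from Olfr1204 in any of the 60 bases, and the other 3 differ from it in 12 or 13. In WT replicates 1 to 3 all 5 genes stood above their WT mean. In WT replicates 4 and 5 all 5 stood below it, at 0.336 to 0.690 and 0.566 to 0.729 times the mean. These ratios also hold each animal's level over all members. The summed CPM of all members was highest in WT replicates 1 to 3 (1654, 1712 and 1620) and lowest in WT replicates 4 and 5 (1330 and 1192) among the WT animals. In DEL replicate 3, Olfr1204 stood at 1.67 times and Olfr1202 at 1.48 times the DEL mean, and Olfr1205 and Olfr1206 at 1.36 and 1.29 times. Olfr1201 did not follow there, at 0.896 times. Per genotype, Olfr1204 had 53.9 to 191 normalized reads in DEL with a median of 109 and 34.9 to 161 in WT with a median of 109. None of the 5 passed between genotypes, with log2 fold changes from -0.31 to 0.22 and adjusted p = 0.955 each by limma.

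**Figure D5:**
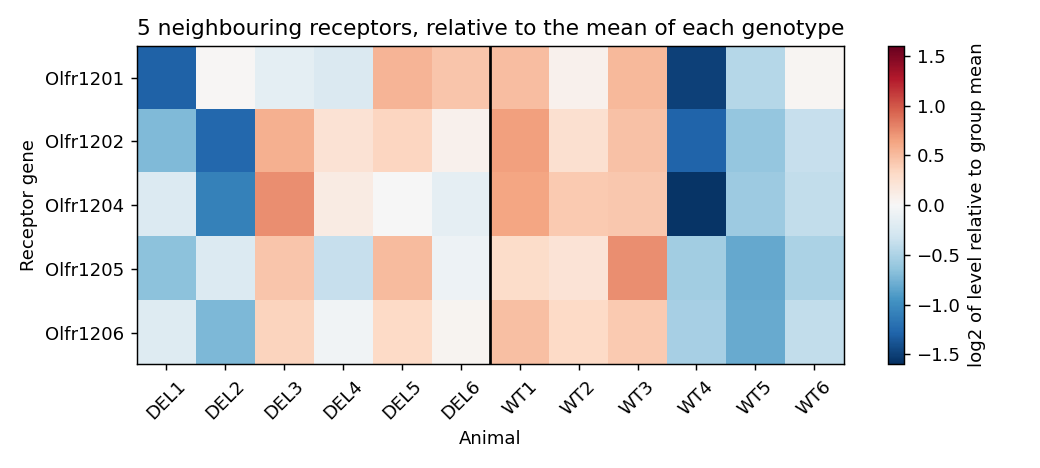
Level of 5 neighbouring receptors in each animal as log2 of the ratio to the mean of its genotype (colour), with DEL animals left of WT animals. WT replicates 4 and 5 are below the mean (blue) and WT replicates 1 to 3 are above it (red) in all 5 rows, while DEL replicate 3 is red in 4 of 5 rows.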

How the data were processed

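RNA was measured in 12 libraries. Reads were aligned with STAR 2.6.0 to GRCm38.p6 and DESeq2 was used, per the submitters' processing notes; the counter, its strand setting and its treatment of shared reads are not stated in the labels or notes used here. The authors deposited, per gene, a signal, namely read counts scaled by the library's size factor. All values (100%, tolerance 0.01 of a read) were whole multiples of 1 read, so reads were recovered. The authors' deposited p-values served only to see that 2917 genes, those with the highest p, were not analysed here; the deposited log2 fold change, p-value, adjusted p-value and score columns gave no result.

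limma 3.58.1 (trend, robust) was fitted to log2(value + 1) for 17320 genes passing edgeR 4.0.16's expression filter (minimum count 10), two-sided, with Benjamini-Hochberg adjustment over all of them and a threshold of 0.05. edgeR and DESeq2 1.42.0 ran on recovered reads. Animal sums used TMM-scaled CPM and exact permutation tests over 924 assignments (smallest p 0.00216). Intervals cover spread between animals; labels do not say whether libraries shared a litter or preparation. Exons, positions and coding sequences came from GENCODE M21, where all 228 members matched, and coding sequence was the longest open reading frame. Its nucleotide identity (1 minus edit distance over the longer length) stood in for protein identity. The model was tested on simulated data. Members and lists were chosen with earlier results of these data known. Named were the 10 highest per kb, up to 8 higher and 8 lower by smallest p, cluster ends, Olfr1019, up to 4 with a library set apart, and up to 3 list genes by smallest p. Alternatives changed test, scaling, filter, pseudocount, threshold, block and libraries.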

Additional observations from a re-analysis of the deposited data

Results flagged for a closer look

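Over the tested members, 23 of 406 groups of 6 animals held 1 animal apart from the other 5 by Dixon's criterion, where chance gives about 1 in 20. Of the members named by rule and the animal sums, 6 of 100 groups did, and Olfr1012, Olfr1099, Olfr1112 and Olfr1257 were named for it. DEL replicate 2 had 108.8 normalized reads of Olfr1099, against 258.3 to 337.9 in the other DEL animals. WT replicate 5 was low for 3 members: it had 293.9 of Olfr1257, against 446.9 to 524.1 in the other WT animals, 54.86 of Olfr1112, against 90.95 to 112.0, and 68.31 of Olfr1231, against 91.43 to 101.4. WT replicate 2 had 216.7 of Olfr1012, against 112.8 to 149.1 in the other WT animals. WT replicate 6 had 47.62 of Olfr1002, against 20.7 to 30.35.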

How the results depend on the processing

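No alternative that changed the test, scaling, filter, pseudocount, threshold or block called a chromosome 2 receptor. Leaving out 1 animal at a time gave 0 to 1 calls (Olfr1301 without DEL replicate 2), and without DEL replicates 2 and 3 there were 3 (Olfr1046, Olfr1160 and Olfr1301, all higher). The summed CPM stayed 5.19% to 13.4% higher with 1 animal left out, without passing. The chromosome 2 share of class II reads differed by -0.615 to -0.141 percentage points with 1 animal left out and by -0.829 without WT replicates 4 and 5 (exact p = 0.0381), chosen after seeing the data. With all receptor reads as denominator the share was 0.989 higher, because the denominator then holds the deleted and lowered class I genes. TMM scaling left 177 members positive. Without the filter the median of all genes was 0.13 and that of the members 0.17.

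Same-numbered animals did not deviate together (correlations -0.243 to -0.00728 over members), so the numbers are not taken as pairs. With the replicate block limma called 0 members, the summed CPM differed by 9.48% (exact p = 0.469) and the share by -0.318 points (exact p = 0.5625). The 25 untested members had 1211 reads in all, 148 of them from DEL replicate 3, and 15 have gene models without untranslated sequence; the cause of their low counts was not tested.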
